A study of Mus musculus with 21 samples.

Results

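The phagocyte NADPH oxidase is followed here through 5 of its genes, Cybb, Cyba, Ncf1, Ncf4 and Rac2. They were matched by gene symbol, and the set was chosen with earlier results of these data known. They are 5 of the 15945, 22274 and 16645 genes listed in 3 gene tables, and each of the 5 was found in all 3 tables and passed the filter on low counts in every comparison. Poly(A) RNA was sequenced from 21 libraries of wild-type (WT) mouse cells in a study of iron in eosinophil differentiation. The first table holds untreated bone marrow eosinophils (n = 3) and untreated granulocyte-macrophage progenitors (GMPs, n = 3). The second holds resting eosinophils (n = 3) and eosinophils given cytokines of type 2 immunity (T2, n = 3). All T2 labels name IL-4 and GM-CSF, and in addition they name IL-33 (replicate 1), IL-34 (replicate 2) or IL-35 (replicate 3). The third holds bone marrow-derived eosinophils (BMDEs), which were grown for 4 days in SCF and FLT3 ligand (both at 100 ng/mL), then moved to IL-5 at 10 ng/mL until harvest on day 7. These BMDEs were left untreated (controls, n = 2) or given from day 4 the iron chelator deferoxamine (DFO, 5 μM, n = 3) or the iron source ferric ammonium citrate (FAC, 10 μM, n = 4). The labels attach the BMDE culture to every sample, so how the bone marrow, GMP, resting and T2 cells were obtained is not given there. They give no age and name no separate animal or culture behind a replicate, so the p-values below speak for the spread among these libraries, which may be technical.

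The oxidase moves electrons from NADPH across a membrane onto oxygen and so makes superoxide, in phagocytes for the killing of microbes and in eosinophils at a high rate on activation. Its membrane core is a heterodimer of gp91phox (NOX2, the catalytic chain, from Cybb) and p22phox (from Cyba), each of which stabilizes the other. On activation cytosolic subunits, among them p47phox (Ncf1, the organizer) and p40phox (Ncf4, which binds a phosphoinositide of the phagosome), move to the membrane with the GTPase Rac2, the main Rac of blood granulocytes. The chaperone gene Cybc1 and the ubiquitous Rac1 are described beside the 5 genes because the complex or its assembly uses their products.

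Total counts lay between 16073573 and 28992668 per library, and levels are given as CPM, counts as parts of the library's total, scaled with TMM factors to correct for the makeup of each library. The labelled cell types were checked with marker lists. Summed over 8 genes, eosinophil markers came to 17920 to 32250 CPM in bone marrow eosinophils and to 93.56 to 247.5 in GMPs. In the bone marrow eosinophil libraries the 14 neutrophil markers summed to more than the eosinophil markers, at 39190, 82820 and 207100 CPM in replicates 1, 2 and 3, against 334.7 to 383.6 in GMPs. Resting and T2 eosinophils held 5623 to 7273 CPM of eosinophil and 1407 to 2752 CPM of neutrophil markers, and BMDEs 17560 to 62710 and 7357 to 21480 CPM. Short transcripts stood highest in 2 libraries. For genes with transcripts of up to 1984 bases, the median log2 deviation from their mean over the table was 0.66 in bone marrow eosinophil 3 and 0.45 in FAC 6, while it lay between -0.41 and 0.26 in the other libraries of those tables. That matters for Cyba, whose longest transcript has 744 bases, and for Ncf4 (1464 bases), less so for Cybb (4752), Ncf1 (2882) and Rac2 (3038). In bulk RNA such as this, fewer cells of a type and less RNA per cell cannot be told apart.

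In the GENCODE M21 annotation of GRCm38, Cyba (ENSMUSG00000006519) lies on chromosome 8 from 122424776 to 122432930, Cybb (ENSMUSG00000015340) on the X chromosome from 9435252 to 9487771, and Ncf1 (ENSMUSG00000015950) on chromosome 5 from 134220053 to 134229625, all on the minus strand. Ncf4 (ENSMUSG00000071715) lies on the plus strand of chromosome 15 from 78244801 to 78262580. Rac2 (ENSMUSG00000033220) lies on the minus strand of the same chromosome from 78559167 to 78572783. Exons of Ncf1 share 408 bases (11.1% of its exonic bases) with Gtf2ird2 on the other strand, and Rac1 shares 2309 (51.4%) with Daglb. The strand setting of the counting is not given in the sources used here, so reads from such pairs cannot be told apart there and the values of Ncf1 and Rac1 are uncertain to that extent.

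RefSeq promoter windows (GRCm38.p6, 250 bases before to 50 bases after the start) were matched for 3 of the 5 genes, Cybb, Cyba and Ncf1; Ncf4 and Rac2 were not matched. They were read because Cybb and Cyba, which encode the membrane pair, moved apart in the comparisons below, and because PU.1, IRF1 and IRF8 are known to bind the human CYBB promoter at a combined Ets and IRF site. 3 motifs were searched on both strands: an Ets-IRF composite (GGAA, any 1 base, then TGAAA), a PU.1 core (GAGGAA) and a GATA core (AGATAA). Cybb held all 3, Cyba the GATA core alone, and Ncf1 none in this window. The Cybb window lies inside the GENCODE span of the gene, whose upstream end is at 9487771. The region before that end was not searched. The composite of Cybb reads on the other strand and begins 4 bases into the transcript, and the PU.1 core overlaps its end. It is in capitals in the first line below, and the GATA core is in capitals in the other lines, at position -236 of Cybb as printed and at -220 of Cyba on the other strand.
Cybb, chrX:9469302-9469331, minus strand: aagctgctgtTTTCATTTCCtcatcagaag
Cybb, chrX:9469325-9469574, minus strand: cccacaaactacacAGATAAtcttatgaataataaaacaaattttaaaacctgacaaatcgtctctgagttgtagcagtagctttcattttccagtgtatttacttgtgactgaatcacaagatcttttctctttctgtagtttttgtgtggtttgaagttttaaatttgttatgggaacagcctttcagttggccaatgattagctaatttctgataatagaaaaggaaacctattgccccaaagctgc
Cyba, chr8:122432941-122433190, minus strand: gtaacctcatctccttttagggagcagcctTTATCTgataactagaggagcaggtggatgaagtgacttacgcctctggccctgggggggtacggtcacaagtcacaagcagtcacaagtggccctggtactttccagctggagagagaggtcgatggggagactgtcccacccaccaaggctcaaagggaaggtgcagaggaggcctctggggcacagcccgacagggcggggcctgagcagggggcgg
Of 32851 promoter windows of this length, 0.731% held the composite, 28.3% the PU.1 core and 11.2% the GATA core. These are matches of letters and not measured binding.

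**Figure D1:**
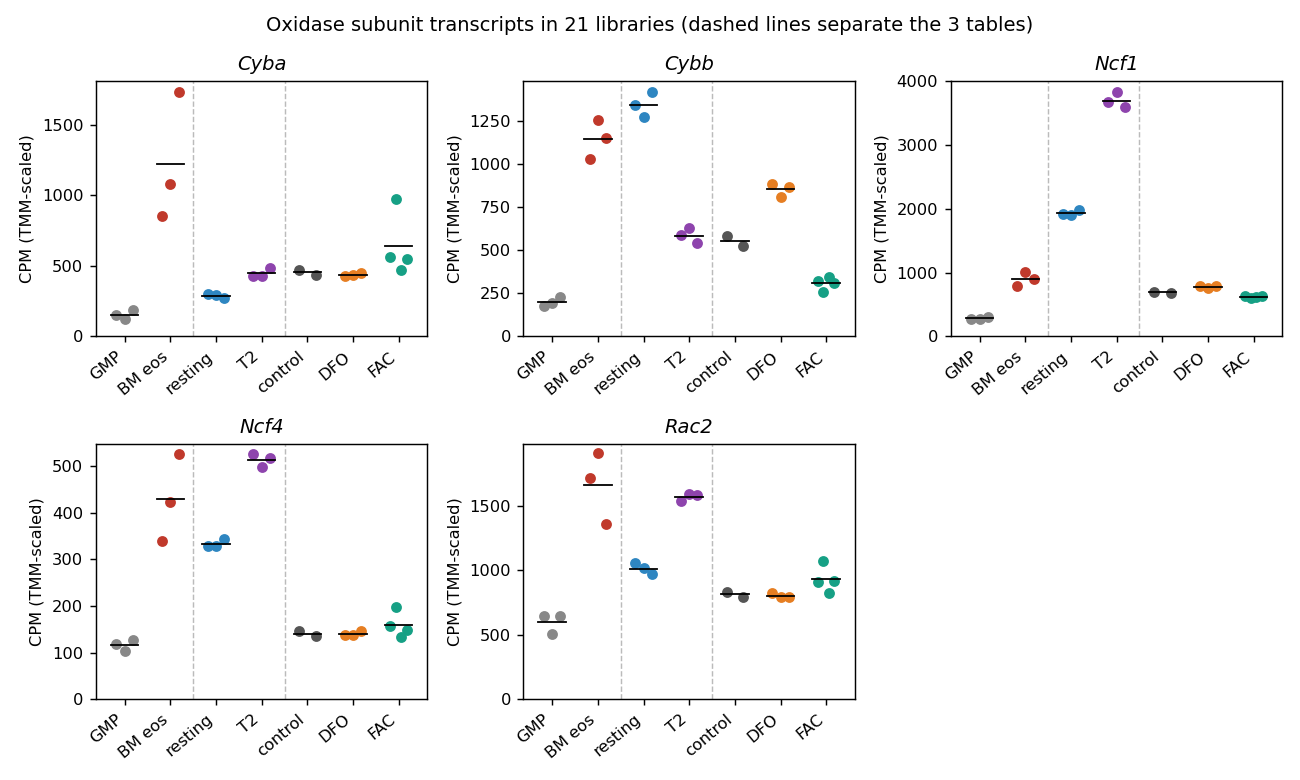
Level of each oxidase gene (CPM, linear axis from 0) in every library of the 7 groups, with a horizontal bar at the group mean; dashed lines separate the tables, which were scaled separately. Every bone marrow (BM) eosinophil library lies above every GMP library for all 5 genes. T2 libraries lie above resting ones for Cyba, Ncf1, Ncf4 and Rac2 and below them for Cybb. Among BMDEs Cybb is the gene whose 3 arms lie farthest apart. How many of all genes have groups apart in this way was not counted. Of all genes tested, 19.8% were called in eosinophils against GMPs and 76.1% in T2 against resting cells.

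Bone marrow eosinophils were compared with GMPs to ask which programmes differ between the progenitor and the mature cell. All 5 oxidase genes were higher in eosinophils, by about 2.77-fold for Rac2 to 7.89-fold for Cyba. Genes listed as its regulators split: Fgr and Cebpe were far higher in eosinophils, Irf8 was far lower, and the partners Cybc1 and Rac1 were not called. Of the 12214 genes tested, 19.8% were called in either direction at an adjusted p under 0.05 in edgeR's quasi-likelihood test, and 65.7% of those calls were higher in eosinophils. Of the 5 genes, 5 were called, all higher.

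Cybb, the catalytic chain, stood at 1028, 1254 and 1152 CPM in the 3 eosinophil libraries and at 178, 193 and 229 CPM in GMPs. The groups lay far apart and neither spread widely. The log2 fold change was 2.52 (SE 0.18, adjusted p = 0.00039). Its partner Cyba was measured at 851, 1078.5 and 1729.9 CPM in eosinophil replicates 1, 2 and 3, and at 154, 124 and 186 CPM in GMPs. Replicate 3 stood well above the other 2 eosinophil libraries, and the lowest eosinophil library was far above the highest GMP library (log2 fold change 2.98, SE 0.32, adjusted p = 0.0017).

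Among the cytosolic subunits, Ncf1 was at 794, 1017 and 897 CPM in eosinophils while GMPs held 277, 275 and 302 CPM (log2 fold change 1.66, SE 0.17, adjusted p = 0.00125). Ncf4 was at 340.5, 423 and 527 CPM against 119, 102 and 127 (log2 fold change 1.89, SE 0.21, adjusted p = 0.00186). Both were without overlap, and Ncf4, like Cyba, was highest in replicate 3. Rac2 was at 1711, 1909.6 and 1360.1 CPM in eosinophils and at 646, 505 and 646 in the progenitors (log2 fold change 1.47, SE 0.20, adjusted p = 0.00443). Here replicate 3 was the lowest eosinophil library, the reverse of Cyba and Ncf4. Cybc1, the chaperone of the heterodimer, differed by 0.24 on the log2 scale (adjusted p = 0.303) and Rac1 by -0.33 (adjusted p = 0.613). Rac1 was at 178, 72.4 and 67.0 CPM in the eosinophil libraries, and without eosinophil 1 its difference was -0.97 (adjusted p = 0.0506).

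The eosinophil replicates rank alike in Cyba, Ncf4, the summed neutrophil markers (39190, 82820 and 207100 CPM) and the shift of short transcripts (0.04, 0.26 and 0.66). In GMPs that shift was -0.25, -0.41 and -0.14 in replicates 1, 2 and 3, below every eosinophil library. It thus differed between the groups and not only in eosinophil 3. The part of the neutrophil markers and of the shift in the differences was not tested. Without eosinophil 3 the log2 fold changes were 2.63 for Cyba, 2.51 for Cybb, 1.66 for Ncf1, 1.71 for Ncf4 and 1.59 for Rac2, and all 5 were called. With an offset per library for transcript length and GC content, Cyba fell from 2.98 to 1.62 and Ncf4 from 1.89 to 1.18, while Cybb stood at 2.72, Ncf1 at 1.565 and Rac2 at 1.38. All 5 were again called under those offsets, and Cybb then had the largest difference of the 5. Over all genes, 65.7% of calls were higher without these offsets and 53.2% with them. Of the marker lists, 13 of 14 neutrophil, 8 of 8 eosinophil, 7 of 7 B cell, 5 of 5 erythroid, 4 of 4 mast cell and basophil and 2 of 4 T and NK cell markers tested were called higher in the eosinophil libraries and 0 lower. Monocyte and macrophage markers split, with 7 of 12 higher and 4 lower, as did dendritic cell markers, with 2 of 8 higher and 1 lower.

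**Figure D2:**
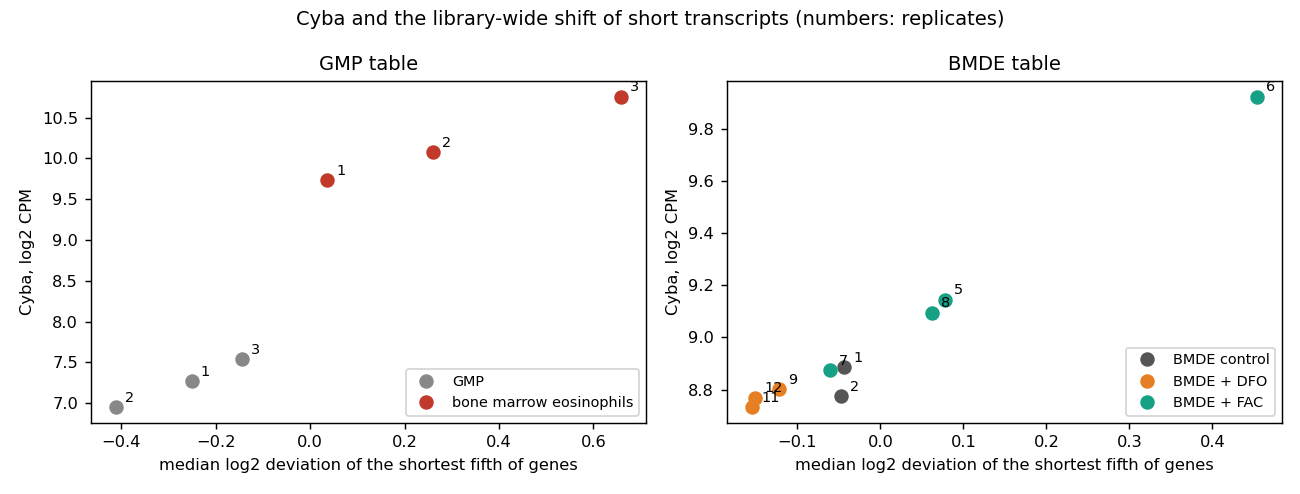
Cyba (log2 CPM, vertical axis) against the median log2 deviation of genes with transcripts of up to 1984 bases from their mean over the table (horizontal axis), 1 point per library with its replicate number; the table of eosinophils and GMPs is on the left and that of BMDEs on the right. Bone marrow eosinophil 3 and FAC 6 lie at the upper right of their tables, at shifts of 0.66 and 0.45.

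The wider machinery was read from 51 listed genes: 12 other oxidase subunits and chaperones, 27 activators and supports, and 12 transcription factors. In eosinophils against GMPs, 40 of the 51 were tested, 8 were called higher and 2 lower. Over all genes tested, 19.8% were called in either direction, and 65.7% of those calls were higher. The median log2 fold change of the listed genes was 0.19, against 0.01 over all genes tested. Fgr, a Src-family kinase that couples Fc receptors and integrins to the oxidase, rose by 8.59 on the log2 scale (127 against 0.33 CPM), and Lyn, of the same family, rose by 0.70. Prkcb and Prkca, protein kinase C isoforms (p47phox is a known substrate), rose by 2.61 and 2.27. Arhgdib, which holds Rac in its inactive form, rose by 1.73, and Hvcn1, the proton channel that balances the charge the oxidase moves, by 1.52. Of the transcription factors, Cebpe, needed for late granulocyte maturation, rose by 3.75 (341 against 25.3 CPM). Irf8, which favours monocytes over granulocytes, fell by 3.65 (98.1 ± 32.2 against 1233 ± 42.7 CPM, SD, n = 3 each), and Elf1 fell by 0.91. The calls of Prkca and Lyn ended when any 1 GMP library was left out (adjusted p from 0.0596 to 0.173), and with the replicate number as a block (0.0609 and 0.0807). The call of Lyn also ended without eosinophil 2 (adjusted p = 0.0954), and those of Hvcn1 and Elf1 without GMP 1 (adjusted p = 0.0553 and 0.0546). With length and GC offsets Arhgdib stood at 0.84 and Cebpe at 3.06, both still called.

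T2 eosinophils were compared with resting eosinophils as a model of an allergic response. The oxidase genes did not move as 1 block. Cyba, Ncf1, Ncf4 and Rac2 rose, by 1.54- to 1.91-fold, while Cybb fell by 1.20 on the log2 scale. The transcript of the catalytic chain thus went down, and the transcripts for the stabilizing chain, the organizer, p40phox and the GTPase went up. Of 11345 genes tested, 38.2% were called higher and 37.9% lower, so a call by itself is common here; of the 5 genes, 4 were called higher and 1 lower.

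Cybb was at 1342, 1272 and 1418 CPM in resting cells and at 588, 626 and 539.7 CPM in the T2 libraries whose labels name IL-33, IL-34 and IL-35. The highest T2 library was far below the lowest resting one (log2 fold change -1.20, SE 0.05, adjusted p = 7.83e-12). The SD was 43.2 CPM at a mean of 584 in T2 cells and 73.3 CPM at a mean of 1344 in resting cells. Cyba was at 299, 293 and 274 CPM in resting cells and at 431, 429 and 482 in T2 cells (log2 fold change 0.63, SE 0.05, adjusted p = 1.51e-08). The groups did not overlap, so the transcripts of the 2 chains of the heterodimer moved in opposite directions. Protein was not measured.

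Ncf1, per length the most abundant of the 7 transcripts in these cells, was at 1913, 1909 and 1976 CPM in resting libraries and at 3668, 3826 and 3601 in T2 libraries, the largest rise of the 5 (log2 fold change 0.94, SE 0.04, adjusted p = 1.93e-12). Ncf4 was at 328, 329.8 and 344 CPM against 526, 499.7 and 519 (log2 fold change 0.62, SE 0.04, adjusted p = 1.05e-09). Rac2 was at 1054, 1012 and 969 CPM against 1532, 1589 and 1586 (log2 fold change 0.63, SE 0.04, adjusted p = 7.18e-10). In all 3 genes the lowest T2 library was well above the highest resting one. Cybc1 (0.07, adjusted p = 0.167) and Rac1 (0.09, adjusted p = 0.0518) were not called, although Rac1 was called without T2 3 (adjusted p = 0.0159) and with no filter on low counts (adjusted p = 0.0398).

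With upper-quartile factors, which moved the median log2 fold change of all tested genes from -0.01 to -0.13, the 5 values were -1.32 for Cybb, 0.52 for Cyba, 0.82 for Ncf1, 0.51 for Ncf4 and 0.52 for Rac2, each still called in its direction. In the authors' deposited table the log2 ratios were -1.42 for Cybb, 0.42 for Cyba, 0.72 for Ncf1, 0.40 for Ncf4 and 0.45 for Rac2. Neutrophil markers summed to 2526 to 2752 CPM in resting and 1407 to 1443 CPM in T2 libraries, with 3 of 14 called higher and 7 lower, and monocyte and macrophage markers to 779.8 to 800.4 and 974.8 to 1020 CPM, with 2 of 10 called higher and 4 lower. In that list Csf1r was at 574 and 875 CPM in resting and T2 cells, while Ly6c2 was at 135 and 80.3 and Ccr2 at 51.7 and 22.4. Eosinophil markers summed to 6961 to 7273 and 5623 to 5774 CPM. Their part in the result was not tested.

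**Figure D3:**
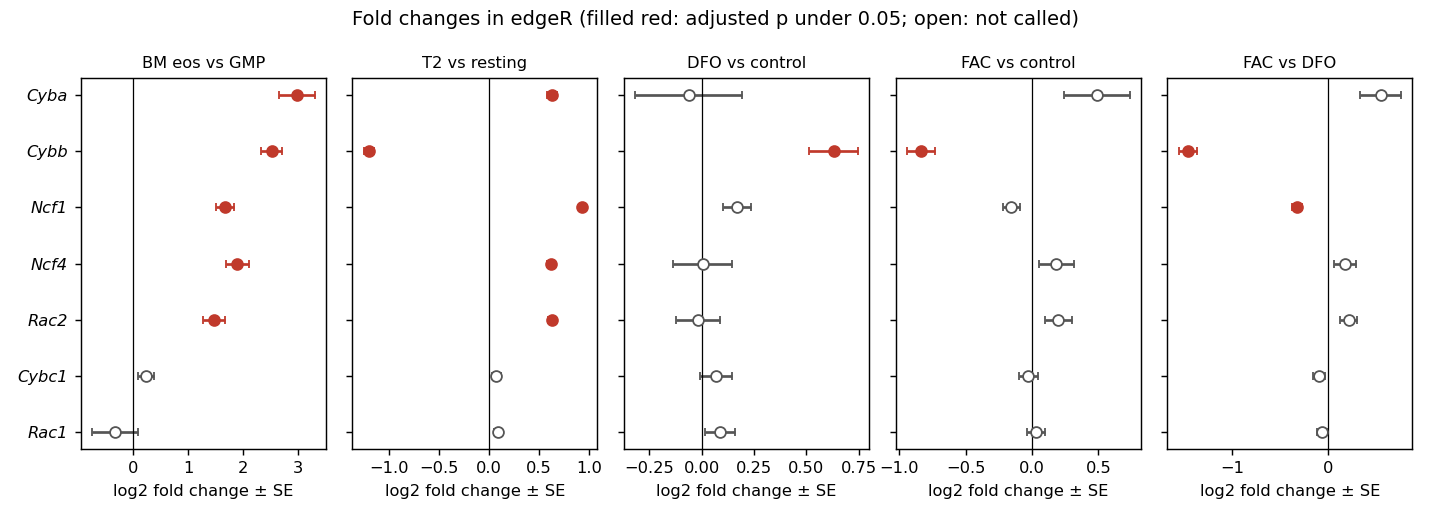
Log2 fold change with its standard error (horizontal axis, a separate scale in each panel) of the 5 oxidase genes and of Cybc1 and Rac1 in the 5 comparisons; filled red points passed an adjusted p of 0.05 in edgeR and open points did not. All 5 genes are to the right of 0 in the first panel, Cybb is to the left in the second, and Cybb is the called gene in both comparisons with BMDE controls.

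Of the 51 listed genes, 42 were tested in T2 against resting cells, and 22 were called higher and 11 lower. Over all genes tested, 38.2% were called higher and 37.9% lower. The median log2 fold change of the listed genes was 0.22, against -0.01 over all genes tested. The Rac exchange factor Tiam1 rose by 2.44 on the log2 scale (273 against 50.2 CPM), Fgr by 2.10 (611 against 143 CPM) and Pla2g4a, a cytosolic phospholipase that releases arachidonic acid, by 1.84. Pik3cd, a phosphoinositide 3-kinase catalytic chain, rose by 1.02. Prkca fell by 1.09 and Pik3c3, the kinase that makes the phosphoinositide p40phox binds, fell by 0.97. Cebpb, Rel and Runx1 rose by 1.64, 1.27 and 0.94, and Cebpe and Irf1 fell by 0.93 and 0.51. Cebpa, near 2 to 3 CPM, fell by 0.62, a call that ended without resting 3, with any T2 library left out and with length and GC offsets (adjusted p from 0.0554 to 0.0829). Irf8 was at 6.77 to 8.20 CPM in resting and 7.55 to 8.47 CPM in T2 libraries and was not called (log2 fold change 0.08, adjusted p = 0.583). Spi1, which encodes PU.1, rose by 0.33. Among oxidase paralogues, Noxa1, an activator of epithelial oxidases, had 123 counts in T2 and 2 in resting libraries, a ratio of 66.5 in CPM (95% exact interval for counting error 18.01 to 555). Its level was 2.43 ± 0.17 CPM (SD, n = 3) in T2 cells. Noxo1, the p47phox-like organizer, fell by 0.98, from 3.77 to 1.91 CPM.

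BMDEs were treated with DFO or FAC to ask how iron shortage and excess act on eosinophil differentiation. Cybb followed the treatment in both directions: it was highest with DFO, intermediate in controls and lowest with FAC. No other gene of the 5 was called against the controls. Against DFO, Ncf1 was also lower with FAC. Both drug comparisons share the same 2 control libraries and all 3 come from 1 fit, so they are not independent.

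Cybb was at 581 and 522 CPM in controls, at 865, 885 and 809.8 CPM with DFO (replicates 9, 11 and 12) and at 320.1, 259.9, 342 and 312 CPM with FAC (replicates 5 to 8). The 3 arms did not overlap. The log2 fold change was 0.63 for DFO against controls (SE 0.12, adjusted p = 0.00961), -0.84 for FAC against controls (SE 0.11, adjusted p = 0.00315) and -1.47 for FAC against DFO (SE 0.10, adjusted p = 5.41e-06). Of 12607 genes tested, 6.46% were called higher and 5.12% lower with DFO, 1.76% higher and 4.28% lower with FAC, and 23.5% higher and 24.8% lower with FAC against DFO. Of the 5 genes, 1 was called higher and 0 lower with DFO, 0 higher and 1 lower with FAC, and 0 higher and 2 lower with FAC against DFO. There were only 2 controls. Without control 1 the log2 fold changes of Cybb were 0.71 with DFO (adjusted p = 0.0625) and -0.76 with FAC (adjusted p = 0.0615), and without control 2 they were 0.55 (adjusted p = 0.123) and -0.91 (adjusted p = 0.028). Over all genes, 11.6% were called with DFO against 2.50% and 1.69% without control 1 and control 2.

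Cyba, in contrast, was at 473 and 438 CPM in controls, 446, 425 and 436 with DFO, and 566, 972, 469 and 547 with FAC. Controls and DFO overlapped (log2 fold change -0.06, SE 0.26, adjusted p = 0.906), and FAC 6 was far above the rest. FAC against controls gave 0.49 (SE 0.25, adjusted p = 0.269) and FAC against DFO 0.55 (SE 0.22, adjusted p = 0.0603). Without FAC 6 these were 0.22 (adjusted p = 0.0364) and 0.29 (adjusted p = 0.000942), smaller differences that passed the threshold. Over all genes, leaving out FAC 6 took the share called from 6.04% to 21.7% against controls and from 48.2% to 62.5% against DFO. With length and GC offsets they were 0.19 (adjusted p = 0.104) and 0.19 (adjusted p = 0.0274). FAC 6 is the BMDE library with the highest shift of short transcripts described above, and it had the lowest Cybb of all BMDE libraries. Without FAC 6, Cybb was still lower with FAC, by -0.755 (SE 0.06) against controls and -1.38 (SE 0.05) against DFO, with adjusted p = 8.91e-07 and 2.39e-11.

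Ncf1 was at 699.96 and 681 CPM in controls, 791, 783 and 751 with DFO, and 625, 605, 619 and 628 with FAC. The arms lay in the same order as for Cybb, without overlap, but within a narrow range. FAC against DFO gave -0.32 (SE 0.06, adjusted p = 0.00141). The differences from controls, 0.17 with DFO (adjusted p = 0.151) and -0.16 with FAC (adjusted p = 0.185), did not pass in edgeR. In DESeq2 both passed (adjusted p = 0.0051 and 0.0347), as did the first in a fit of those 2 arms alone (adjusted p = 0.00121). Over all genes, DESeq2 called 15.5% with DFO and 10.4% with FAC, against 11.6% and 6.04% in edgeR. The fit of the DFO and control arms alone called 48.0%. Ncf4 was at 145 and 135 CPM in controls, 146, 138 and 138 with DFO, and 156, 198, 134 and 148 with FAC, and the arms overlapped. Its log2 fold changes were 0.00, 0.18 and 0.18 in the 3 comparisons (adjusted p from 0.237 to 0.989). Rac2 was at 833 and 791 CPM in controls, 794, 819 and 793 with DFO, and 910.1, 1071, 826 and 918 with FAC. It differed by -0.02 with DFO (adjusted p = 0.935), 0.20 with FAC (adjusted p = 0.268) and 0.22 for FAC against DFO (adjusted p = 0.0675). Cyba and Rac2 were called higher with FAC against DFO in DESeq2 (adjusted p = 0.0284 and 0.0428) and without FAC 7 (0.0189 and 0.0169). Rac2 was also called without FAC 6 (0.0141) and with length and GC offsets (0.0277). Over all genes, 48.2% were called for FAC against DFO, and 50.7% in DESeq2. The share was 53.8% without FAC 7, 62.5% without FAC 6 and 55.0% with the offsets.

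Cybc1 and Rac1 differed by at most 0.10 on the log2 scale in any BMDE comparison and were not called, except Cybc1 for FAC against DFO with the offsets (-0.18, adjusted p = 0.00381).

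**Figure D4:**
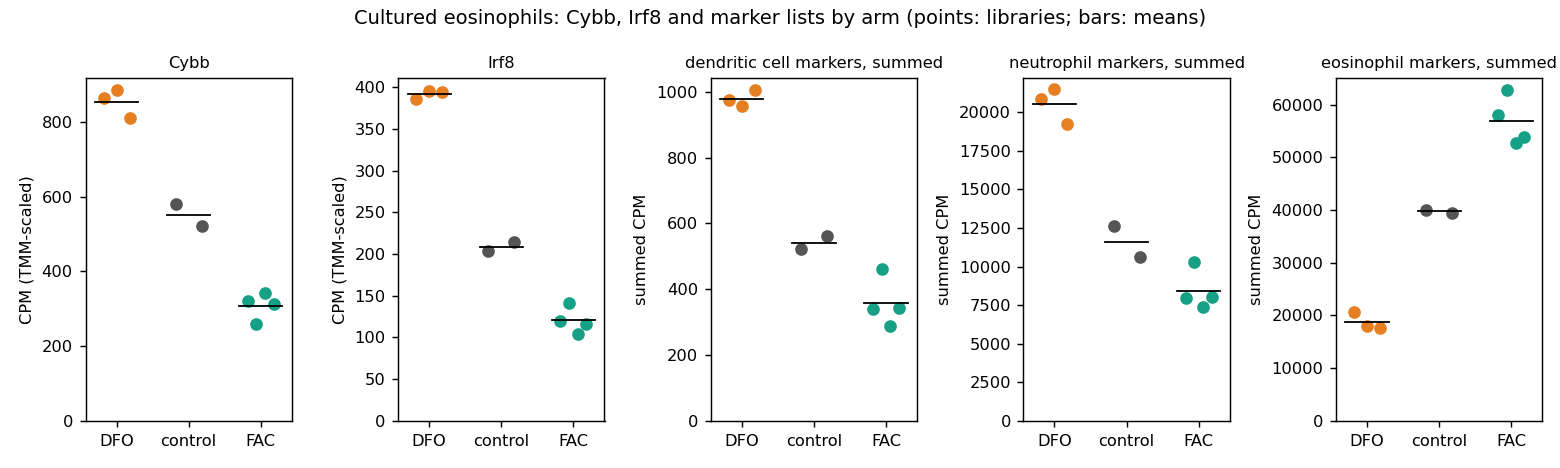
From left to right, Cybb, Irf8 (CPM) and the summed dendritic cell, neutrophil and eosinophil markers (summed CPM) in each BMDE library by arm, with bars at the arm means and axes from 0. Cybb, Irf8, dendritic cell and neutrophil markers are highest with DFO and lowest with FAC, and eosinophil markers run the other way.

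Neutrophil and dendritic cell markers moved with Cybb across the BMDE arms. The 14 neutrophil markers summed to 10590 to 12630 CPM in untreated cells, 19210 to 21480 under DFO and 7357 to 10270 under FAC. With DFO 10 of them were called higher and 1 lower, and with FAC 0 higher and 6 lower. The 8 dendritic cell markers summed to 522.2 to 561.2, 957.1 to 1005 and 288.4 to 460.2 CPM, with 6 called higher and 0 lower with DFO and 0 higher and 4 lower with FAC. The most abundant neutrophil marker, Ngp, was at 2968 ± 280 CPM in controls, 5293 ± 373 with DFO and 2325 ± 251 with FAC (SD, n = 2, 3 and 4). In the same arms Siglech, the most abundant of the dendritic list after H2-Eb1, was at 119 ± 7.84, 251 ± 9.93 and 49.5 ± 3.89 CPM. Eosinophil markers ran the other way, at 39370 to 40090 CPM without treatment, 17560 to 20720 under DFO and 52690 to 62710 under FAC. No member of the neutrophil or dendritic list was at 0 in all libraries of an arm. Monocyte and macrophage markers summed to 2259 to 2415, 2089 to 2210 and 2575 to 3813 CPM, with 2 of 11 called higher and 2 lower with DFO, 2 higher and 3 lower with FAC, and 2 higher and 4 lower for FAC against DFO. Members of that list differed in direction: in controls, DFO and FAC Ly6c2 was at 892, 533 and 1628 CPM, while Csf1r (406, 500 and 350.0), F13a1 (288, 352 and 198) and Ccr2 (233, 346 and 137) lay in the order of Cybb. The part of these markers in the Cybb result was not tested.

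Of the 51 listed genes, 42 were tested in BMDEs. DFO gave 7 called higher and 1 lower (median log2 fold change 0.12, against 0.00 over all genes tested). FAC gave 0 higher and 4 lower (-0.09 against -0.02), and FAC against DFO gave 6 higher and 17 lower (-0.14 against -0.01). Over all genes tested, 6.46% were called higher and 5.12% lower with DFO, and 1.76% higher and 4.28% lower with FAC. For FAC against DFO these shares were 23.5% higher and 24.8% lower. With DFO, Fgr rose by 0.63 (adjusted p = 0.00369), Pak1, a kinase activated by Rac, by 0.64, Pik3r5, a regulatory chain of phosphoinositide 3-kinase gamma, by 0.45, the Rac exchange factor Vav2 by 0.44 and the Src-family kinase Lyn by 0.38. With FAC, Fgr fell by 0.51, Vav2 by 0.56 and Lyn by 0.31. For FAC against DFO, Fgr fell by 1.13, Pak1 by 1.12, Vav2 by 1.00, Vav3 by 0.76, Lyn by 0.69 and Pik3r5 by 0.65.

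Irf8 had the largest called change of the listed transcription factors in all 3 BMDE comparisons, and with FAC against controls it was the one called. It was at 203 and 215 CPM in controls, 386, 396 and 394 with DFO, and 120.3, 141, 105 and 116 with FAC. The arms did not overlap and lay in the order of Cybb. It rose by 0.91 with DFO (SE 0.11, adjusted p = 0.00233), fell by 0.79 with FAC (SE 0.10, adjusted p = 0.00353) and fell by 1.70 for FAC against DFO (SE 0.09, adjusted p = 2.44e-06). In bone marrow Irf8 and Cybb went in opposite directions, with Irf8 at 135, 77.3 and 81.7 CPM in eosinophils and 1259.7, 1255 and 1184 CPM in GMPs. Cebpa rose by 0.58 and Cebpe fell by 0.82 with DFO, and for FAC against DFO Cebpa fell by 0.69, Rel fell by 0.95, Irf1 fell by 0.58, Cebpe rose by 1.23 and Cebpb rose by 0.81. Spi1 was not called with either drug against controls (log2 fold changes -0.12 and 0.24, adjusted p = 0.537 and 0.203).

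The calls against controls of Irf8 held without each library. With DFO, the calls of Pak1, Pik3r5, Vav2, Lyn, Cebpe and Cebpa each ended without control 1 or control 2 (adjusted p from 0.0544 for Cebpe to 0.196 for Lyn). Those of Pak1, Pik3r5, Lyn and Cebpa also ended without 2 or 3 of the DFO libraries in turn (from 0.0545 for Pik3r5 without DFO 9 to 0.0785 for Lyn without DFO 11). With FAC, the calls of Fgr, Vav2 and Lyn ended without control 1 (0.156, 0.0596 and 0.377), those of Vav2 and Lyn without control 2 (0.0518 and 0.185), and all 3 in a fit of these 2 arms alone (from 0.0553 to 0.192). That of Lyn also ended without FAC 5 or FAC 8 (0.107 and 0.0802), with RLE factors (0.0506) and with no filter (0.0653). Over all genes, 29.2% of calls with FAC against controls were higher in edgeR, 42.0% in DESeq2 and 49.8% with the offsets.

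Levels of different genes were set side by side per transcript length, in the authors' FPKM (fragments per kilobase of transcript, scaled to library size), within each table. In GMPs the 7 genes stood in the order Cyba (330 ± 56.1 FPKM, SD, n = 3), Rac2 (246), Ncf1 (132), Ncf4 (120.2), Rac1 (75.8), Cybc1 (65.1) and Cybb (51.2 ± 6.14). Ncf1 and Ncf4 overlapped there, as did Rac1 with Cybc1 and with Cybb. In bone marrow eosinophils Cyba led with 1787 ± 253 FPKM, Rac2 (517 ± 164), Ncf4 (309.8) and Ncf1 (309) followed with ranges that overlapped, and Cybb came next with 218 ± 40.2, its range overlapping that of Ncf1. Cybb, lowest of the 7 in mean in GMPs, stood above Cybc1 and Rac1 here without overlap.

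In resting eosinophils Ncf1 (763 ± 14.1 FPKM) led, then Cyba (418 ± 19.4), Rac2 (382), Cybb (305 ± 15.9) and Ncf4 (257), with no overlap between neighbours. In T2 cells Ncf1 was at 1259 ± 28.0 FPKM, Cyba (559.7 ± 44.5) and Rac2 (521 ± 31.9) overlapped, and Ncf4 (340.4) and Rac1 (120.2) preceded Cybb (114 ± 7.04), which overlapped Rac1. In control BMDEs Cyba led with 956 FPKM, then Rac2 (299), Ncf1 (286), Rac1 (172), Cybb (125) and Ncf4 (121), with only Cybb and Ncf4 overlapping. Of the 7 genes, Cybb was number 5 there, number 4 with DFO (199 ± 8.96 FPKM, overlapping Rac1) and number 6 with FAC (66.1 ± 9.13).

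The balance of the membrane pair's transcripts can be read within each library as the ratio of Cyba to Cybb in FPKM. This is a per-length ratio in which library size cancels. It was 7.52 and 7.76 in control BMDEs, 4.79, 4.43 and 5.00 with DFO, and 16.4, 33.6, 12.7 and 16.3 with FAC. The 3 arms did not overlap, and FAC 6 was far above every other library. The shift of short transcripts does not cancel in this ratio, as the longest transcripts have 744 bases (Cyba) and 4752 (Cybb). That shift was -0.04 and -0.05 in controls and -0.12, -0.15 and -0.15 with DFO. With FAC it was 0.08, 0.45, -0.06 and 0.06 in replicates 5 to 8. Its part in the ratios was not tested. In resting eosinophils it was 1.42, 1.47 and 1.23, and in T2 cells 4.70, 4.40 and 5.72. In bone marrow eosinophils it was 6.76, 7.07 and 11.8 and in GMPs 7.26, 5.37 and 6.76, which overlapped. The length the authors' values imply for Cyba differed between tables, with a median of 550 bases in the GMP table, 742 in the T2 table and 484 in the BMDE table, so ratios with Cyba are not compared across tables.

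The patterns of the 5 genes over the 7 groups were compared by the root mean square (RMS) difference of their mean log2 CPM, each gene being centred within each table. Ncf4 and Rac2 were the most alike pair of the 5, with an RMS difference of 0.11, followed by Ncf1 with Ncf4 and Ncf1 with Rac2 (0.17 each). Cybb was the least like the others, at 0.68 to 0.73 from each of the other 4. These values describe 7 group means. Centring makes the bone marrow eosinophil and GMP values mirror each other (1.47 and -1.47 for Cyba). It does the same for the resting and T2 values (-0.32 and 0.32 for Cyba).

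The 3 genes most like Cybb were Lsp1 (RMS difference 0.15), Slfn5 (0.24) and Tbc1d8 (0.25). Lsp1, a leukocyte actin-binding protein, had log2 fold changes of 2.34 in bone marrow eosinophils, -1.46 in T2 cells, 0.74 with DFO and -0.35 with FAC, the last 2 not called (adjusted p = 0.0562 and 0.306). Slfn5 had 3.65, -1.45, 0.81 and -1.25 and Tbc1d8 1.68, -1.39, 0.65 and -0.53, all called. Cyba lay nearest to S100a6 (0.03), Glipr2 (0.09) and Lgals3 (0.10). Ncf1 was nearest to Samsn1 (0.06), Pmaip1 (0.07) and Stx11 (0.11), Ncf4 to Ubtd1 (0.07), Cox17 (0.08) and Smim3 (0.08), and Rac2 to Chmp2a (0.03), Hcls1 (0.05) and Bbip1 (0.06). No gene was as near to Cybb as the third nearest gene was to any of the other 4.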

How the data were processed

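Per the labels' protocols, mRNA was enriched on oligo(dT) beads before a NEBNext Ultra library kit was applied. Per the submitters' processing notes, fastp 0.18.0, Bowtie2 2.2.8, HISAT2, StringTie 1.3.1, RSEM and the mm10 build were used, with no role given for each. The authors deposited expected counts (estimated, not whole, not normalized) in the GMP and BMDE tables and read counts in the T2 table. They also deposited FPKM, normalized for length and library size, in all 3 tables, and for T2 a log2 ratio with a p-value and FDR from a test that is not named; 15 TPM columns were not used.

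Groups came from the labels. Rounded expected counts and counts were analysed table by table with R 4.3.3, limma 3.58.1 and edgeR 4.0.16, using filterByExpr, TMM factors and the two-sided quasi-likelihood F test, with the 3 BMDE arms in 1 fit. Benjamini-Hochberg adjustment ran over all tested genes, and the threshold for a call was an adjusted p of 0.05. The fit was tested on simulated counts. Alternatives were DESeq2 1.42.0, RLE and upper-quartile factors, no filter, a replicate block, fits of 2 arms and leaving out each library. Offsets for length and GC content (mgcv 1.9.3) were added after seeing the data. The members and lists were chosen with earlier results of these data known. Named besides the members are Cybc1 and Rac1, up to 6 called genes per list and comparison by size of change, and the 3 genes most like each member among genes with a mean of at least 10 CPM in each table; Irf8 and Spi1, where outside that rule, were chosen after their values were seen. Some genes of the pathway are not reported here.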

Additional observations from a re-analysis of the deposited data

How the results depend on the processing

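For the 5 oxidase genes, 278 of 300 values under alternatives kept their direction and side of the threshold, 12 newly passed it, 3 no longer passed and 7 changed sign. All 5 kept being called in eosinophils against GMPs and in T2 against resting cells under every alternative run. With the replicate block 5 and 5 were called, with Cybb at 2.52 and -1.20 on the log2 scale. The block took the number of genes called in eosinophils against GMPs from 19.8% to 11.6%. The numbers were not taken to pair the libraries, since same-numbered libraries correlated at 0.01, 0.00 and 0.12 in the GMP table and -0.01, -0.02 and 0.03 in the T2 table and did not always correlate best with their own number; BMDE replicates share no numbers.

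The count of the 5 genes called with DFO against controls was 1, and it was 2 in DESeq2 and in the fit of 2 arms, and 0 to 1 with 1 library left out. With FAC against controls it was 1, against 2 in DESeq2 and 0 to 2 with 1 library left out. For FAC against DFO it was 2, against 4 in DESeq2 and with length and GC offsets, and 2 to 4 with 1 library left out. Of the other listed genes, 10 were called in eosinophils against GMPs and 5 to 19 with 1 library left out. With DFO 8 were called, 28 in the fit of 2 arms, 14 with the offsets and 2 to 6 with 1 library left out. With FAC 4 were called, 1 in the fit of 2 arms, 7 with the offsets and 1 to 15 with 1 library left out. Over all genes, 11.6% were called with DFO, 15.5% in DESeq2, 48.0% in the fit of 2 arms and 23.1% with the offsets. With FAC the share was 6.04%, 10.4% in DESeq2 and 0.935% in the fit of 2 arms. That share was 12.8% with the offsets and 21.7% without FAC 6. For FAC against DFO 48.2% were called, 50.7% in DESeq2 and 55.0% with the offsets. In eosinophils against GMPs the share was 19.8%, and 5.91% to 36.6% with 1 library left out. The cause of these changes was not tested, although leaving out a control also leaves that arm with 1 library, which is assumed to vary like the others.

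Values that changed sign were small. With the offsets these were Cybc1 in eosinophils against GMPs (-0.011) and in T2 cells (-0.013), Cyba with DFO (0.007), and Ncf4 and Rac1 for FAC against DFO (-0.065 and 0.069). With upper-quartile factors these were Cybc1 and Rac1 in T2 cells (-0.042 and -0.028) and Ncf4 with DFO (-0.001), which was -0.003 with no filter. With 1 library left out, the values with DFO ran from -0.050 to 0.059 for Ncf4 and -0.056 to 0.018 for Rac2, and those with FAC from -0.034 to 0.097 for Rac1 and from -0.050 to 0.025 for Cybc1. No filter moved the median of all genes in T2 cells from -0.01 to -0.14. Depth did not limit the 5 genes, whose lowest level was 102 CPM.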
